A study of Mus musculus with 32 samples.

Results

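The complement system is a cascade of blood and tissue proteins. It was followed here in mouse heart RNA through 9 genes: the C1q chains C1qa, C1qb and C1qc, the C1 proteases C1ra and C1s, the C1 inhibitor Serping1, the central components C3 and C4b, and the alternative pathway protease Cfb. Their probes were found by the gene symbol that the array design gives, and were 12 of the 55681 probes of the array. The 9 were among 27532 genes tested, and were chosen with earlier results of these data known. RNA was taken from 32 hearts of C57BL/6 mice, an inbred laboratory strain, with 1 array per mouse. Stressed mice spent 6 hours a day in the cage of an aggressor and could be attacked directly for at most 2 minutes or 10 bites, a laboratory model of posttraumatic stress disorder. Control mice sat in the same kind of mesh box in a cage that held no aggressor.

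Of the 8 groups of 4 mice, stressed T5R1 mice had 5 days of exposure and 1 day of rest, stressed T5R10 mice 5 days and 10 days of rest, stressed T10R1 mice 10 days and 1 day of rest, and stressed T10R42 mice 10 days and 42 days of rest. Each had control mice of its own with the same schedule. Ages were not given in the labels used here. Each condition filled a slide of its own with its 8 arrays, and condition and slide cannot be told apart. Stressed and control mice also lay in different columns of the slide, and column and stress cannot be told apart either. Between 28792 and 40672 probes were well above background on an array, and the number of mice limits the precision. The 10 heart muscle markers examined (Myh6 and Actc1 among them) were well above background on all 32 arrays. Of 12 liver cell markers, Apoa2, Ahsg, Serpina1a and Cyp2e1 were so on all 32 arrays too, Fga on 29, Ttr and Hpx on 25, and the remaining 5, albumin (Alb) among them, on 1 to 6.

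In the classical pathway C1q binds antibody or altered cell surfaces and the proteases C1r and C1s, attached to it, cut C4 and C2. The alternative pathway uses factor B, the product of Cfb, to cut C3, and both routes meet at C3, whose fragments coat surfaces and recruit phagocytes. Serping1 encodes the serum inhibitor that pulls C1r and C1s off C1q. Most circulating complement comes from the liver, while C1q is made mainly by macrophages and related cells, and C1r, C1s and C3 are also made by fibroblasts.

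The array read each transcript through probes of 60 bases, and the 12 probes were well above background on all 32 arrays and saturated on none. The sequences of 4 of them are shown because the results below turn on these genes. All 4 lie on the minus strand, with positions as the array design gives them for the mm9 genome. The C1qa probe covers chr4:136452409-136452468 and the C1qb probe chr4:136436578-136436637. The Cfb probe spans 357 bases, chr17:34993502-34993858, and the second Serping1 probe spans 1507 bases, chr2:84605968-84607474, so that each joins pieces that are apart in the genome. Sequences are given 5′ to 3′ as the scanner files hold them.
C1qa: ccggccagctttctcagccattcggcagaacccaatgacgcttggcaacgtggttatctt
C1qb: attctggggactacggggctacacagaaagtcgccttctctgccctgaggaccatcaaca
Cfb: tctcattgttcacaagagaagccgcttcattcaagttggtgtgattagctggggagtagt
Serping1: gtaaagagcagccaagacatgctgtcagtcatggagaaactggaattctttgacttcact

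The 3 C1q genes lie next to each other on chromosome 4 in the RefSeq gene table of assembly GRCm38.p6, where C1ra and C1s1 (the array's C1s) share chromosome 6 and C3, C4b and Cfb share chromosome 17. Promoter sequence from RefSeq was matched for 5 of the 9 genes, with 6 transcription starts. Below are the 150 bases before the start of C1qb and C1qc, which moved together between hearts, and of C3, on GRCm38.p6 and the minus strand. The C1qb stretch is chr4:136886201-136886350, that of C1qc chr4:136892915-136893064 and that of C3 chr17:57228137-57228286. Capitals mark a match to GAGGAA, the core of sites for ETS factors such as PU.1, to TTGCNNAA (C/EBP type) or to GGG and CC with 5 bases between them (NF-kB type), each searched on both strands.
C1qb: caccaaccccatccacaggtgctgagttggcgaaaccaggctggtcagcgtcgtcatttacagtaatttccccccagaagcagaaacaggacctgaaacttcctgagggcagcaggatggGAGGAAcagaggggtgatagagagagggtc
C1qc: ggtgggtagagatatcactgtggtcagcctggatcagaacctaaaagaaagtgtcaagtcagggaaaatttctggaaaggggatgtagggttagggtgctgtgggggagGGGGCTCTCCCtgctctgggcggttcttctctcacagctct
C3: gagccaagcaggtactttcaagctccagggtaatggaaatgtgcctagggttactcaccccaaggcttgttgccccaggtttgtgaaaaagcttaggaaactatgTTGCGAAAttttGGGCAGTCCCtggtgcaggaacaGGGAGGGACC

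In the 250 bases before the start, GAGGAA was in the C1qb and C1qc windows and in 23.3% of all 32851 windows of that table. The C/EBP type letters were in the C3 window and in an upstream window of C1s, against 9.56% of all windows, and the NF-kB type letters, in C1qb, C1qc, C1s and C3, were in 45.8% of all windows. Several of the NF-kB type matches overlap each other by all but 1 base, because they read the same site on both strands. None of these letters was in the C1ra window. A pair of GAAA with 2 bases between them (interferon response type, in 2.98% of all windows) and TATAAA (in 12.4%) were in none of the 6 windows.

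Levels below are log2 processed signals relative to the 75th percentile of the same array, so that a difference of 1 is a doubling. Changes are stressed minus control with their standard error (SE, n = 4 mice per arm). The SE comes from limma, with the spread of a gene pooled over all 8 groups, and is not that of the compared arms alone. In T5R1 the SD was 0.49 in stressed hearts against 0.15 in controls for C1qb. For C1qa it was 0.39 against 0.13, and for C1ra 0.08 in both arms. P values come from limma, fitted to all tested genes on all 32 arrays, are two-sided and are adjusted by the Benjamini-Hochberg method over the 27532 genes. A gene was called when its adjusted p was below 0.05. Levels of different genes come from different probes and are not set against each other. Whether more cells of a type or more RNA per cell lies behind a change cannot be told apart in whole heart RNA.

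In T5R1, 4 of the 9 genes rose in stressed hearts, namely C1qc, C1qa, C1ra and Cfb, and none fell. Over all tested genes 13.7% were called in T5R1, 5.3% higher and 8.43% lower. The arms did not overlap, with all stressed hearts above all controls, for 4 of the 9 genes, against 6.63% of all genes. All 9 genes were measured higher in stressed hearts, with a median change of 0.38, against a median of -0.12 over all genes. Leaving out stressed replicate 1 left 1 call, and leaving out stressed replicate 2, control replicate 3 or control replicate 4 left 2. With arrays centred on the median C1qb (0.52, adjusted p = 0.0478) and C4b (0.60, adjusted p = 0.0385) were called as well. In T10R1, 1 of the 9, Serping1, rose; 1.13% of all genes were called there, and the share called higher was 0.774%. None of the 9 was called in T10R1 without control replicate 3, control replicate 4 or stressed replicate 4. All 9 were again measured higher, and the stressed hearts lay above all controls for 4 of the 9, against 4.3% of all genes. No gene of the 9 was called by limma after the longer rests of 10 and 42 days, where 0.0763% of all genes were called in T5R10 and 0.897% in T10R42. In each, 1 of the 9 (C1ra) had an unadjusted p below 0.05, as had 3843 of all 27532 genes in T5R10 and 5166 in T10R42. The plot of levels by heart shows the values behind these counts.

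**Figure D1:**
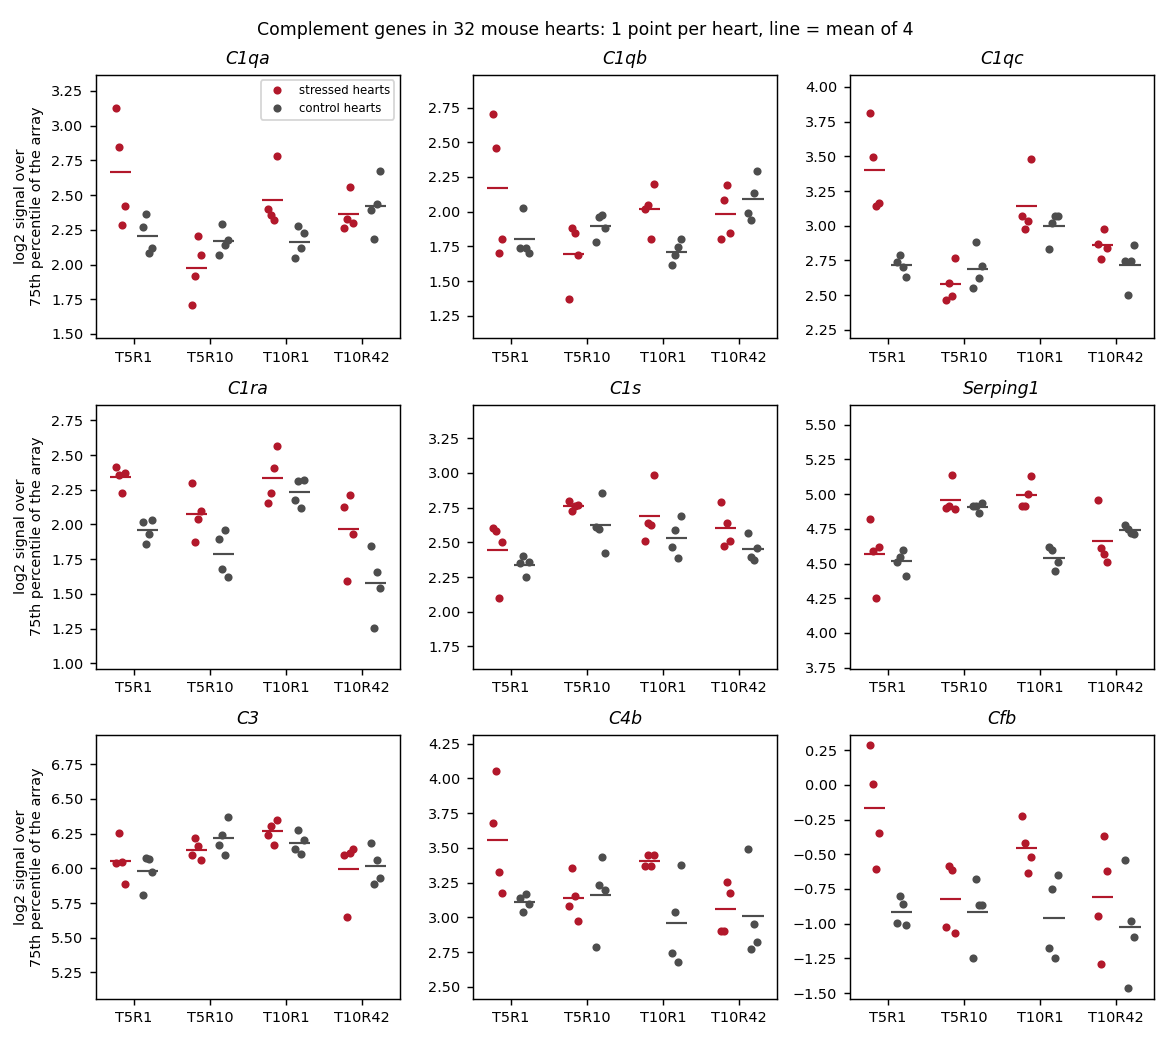
Log2 signal of the 9 complement genes over the 75th percentile of the array (y axis) in each of the 32 hearts, by condition (x axis), with stressed hearts in red left of control hearts in grey and lines at the means of 4 hearts. Stressed T5R1 hearts lie wholly above their controls for C1qc, C1ra, C4b and Cfb, and stressed T10R1 hearts for C1qa, C1qb, Cfb and Serping1.

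The C1q chains form the recognition part of C1. C1qc measured 3.81, 3.49, 3.14 and 3.16 in the 4 stressed T5R1 hearts, against 2.74, 2.79, 2.71 and 2.63 in their controls. Every stressed heart lay above every control heart, and the first pair of stressed hearts stood highest. C1qc rose by 0.69 ± 0.12 in T5R1 (a fold of 1.61, adjusted p = 0.000512). It was the only one of the 9 to keep its call when any single T5R1 array was left out, with changes from 0.55 to 0.83 over all alternatives. The C1qc probe is printed on the array in 10 spots, which were averaged, whereas C1qa and C1qb have 1 spot each.

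C1qa measured 3.12, 2.85, 2.28 and 2.42 in stressed T5R1 hearts, against 2.27, 2.36, 2.08 and 2.12 in controls. The arms overlapped, because the third stressed heart lay among the controls. C1qa rose by 0.46 ± 0.14 (adjusted p = 0.0323), and the call was lost without stressed replicate 1 (change 0.31, adjusted p = 0.169) and without stressed replicate 2, control replicate 3 or control replicate 4 (adjusted p from 0.0805 to 0.0904). Fitted to the 8 arrays of T5R1 alone, the same change had an adjusted p of 0.138. C1qb, the remaining chain, measured 2.70, 2.46, 1.70 and 1.81 in stressed hearts, against 1.74, 2.03, 1.74 and 1.70 in controls. A pair of stressed hearts lay above all controls and the other pair at the level of the controls, and the change of 0.37 ± 0.16 did not pass the test (adjusted p = 0.124). Stressed replicates 1 and 2 of T5R1 were thus the 2 highest hearts for each of the 3 chains. Their arrays lay in slide column 4, and those of stressed replicates 3 and 4 in column 3. The 75th percentiles used for scaling were 498.9 and 498.7 for replicates 1 and 2, against 346.4 and 418.3 for replicates 3 and 4. Heart, column and scaling cannot be told apart in this split.

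After 10 days of rest no C1q chain was called. C1qc measured 2.47, 2.59, 2.49 and 2.76 in stressed T5R10 hearts, against 2.55, 2.88, 2.62 and 2.71 in controls. The arms overlapped. The stress effect on C1qc was lower in T5R10 than in T5R1 by a difference of -0.80 ± 0.17 (adjusted p = 0.0134), the only one of the 9 called for this difference, where 2.49% of all genes were called. It was no longer called when 3 T5R10 arrays with an evaluation mark from the scanner software were left out (-0.74, adjusted p = 0.0585) or when only the arrays of both conditions were fitted (adjusted p = 0.0695). For C1qa the same difference was -0.66 ± 0.20 (adjusted p = 0.0815) and for C1qb -0.57 ± 0.23 (adjusted p = 0.181).

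In T10R1 none of the chains was called. C1qa measured 2.40, 2.35, 2.32 and 2.78 in stressed hearts, against 2.04, 2.28, 2.12 and 2.22 in controls. C1qb measured 2.02, 2.05, 1.81 and 2.20 in stressed hearts, against 1.61, 1.69, 1.74 and 1.80 in controls. For both chains all stressed hearts lay above all controls, for C1qb by under 0.01, and neither change passed the test (0.30 ± 0.14 for C1qa, adjusted p = 0.377, and 0.31 ± 0.16 for C1qb, adjusted p = 0.421). C1qc overlapped between the arms, with a change of 0.14 ± 0.12 (adjusted p = 0.680). The difference of the C1qc effect between T10R1 and T5R1 was -0.54 ± 0.17 and did not pass the test (adjusted p = 0.111). None of the 9 was called for this difference, where 0.592% of all genes were, and 2 of the 9 had an unadjusted p below 0.05. In T10R42 the changes were -0.06 for C1qa, -0.11 for C1qb and 0.15 for C1qc, none of them called.

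C1ra encodes the protease that activates C1s inside the C1 complex. It measured 2.41, 2.35, 2.22 and 2.37 in stressed T5R1 hearts, against 2.02, 1.86, 1.93 and 2.03 in controls. The arms did not overlap, and C1ra rose by 0.38 ± 0.13 (adjusted p = 0.0447). The call was lost when any array of T5R1 but that of stressed replicate 3 was left out, with adjusted p from 0.0597 to 0.120. In a limma fit of all probes in place of genes the other C1ra probe gave a change of 0.05 ± 0.11 in T5R1 (adjusted p = 0.794), against 0.38 for the probe used (adjusted p = 0.0506), so the probes disagreed, and with the mean of both the call was lost (0.21, adjusted p = 0.156). These probes lie on chromosome 6 of mm9, plus strand, at chr6:124473052-124473111 for the brighter one, which was used, and chr6:124472674-124472733 for the other. C1ra, C1s and Cfb were the genes measured higher in stressed hearts in all 4 conditions. For C1ra the other changes were 0.29 ± 0.13 in T5R10 (adjusted p = 0.299), 0.10 ± 0.13 in T10R1 (adjusted p = 0.785) and 0.39 ± 0.13 in T10R42 (adjusted p = 0.09997). The other C1ra probe gave 0.10 in T5R10 (adjusted p = 0.726), 0.28 in T10R1 (adjusted p = 0.270) and 0.20 in T10R42 (adjusted p = 0.334), so that the sizes in each condition rest on the probe chosen.

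In T10R42, C1ra measured 2.13, 1.59, 2.21 and 1.93 in stressed hearts, against 1.85, 1.26, 1.66 and 1.55 in controls. The arms overlapped through stressed replicate 2, and without that heart the change was 0.51 with an adjusted p of 0.0197, on the probe used. The C1ra level was also the one that differed most between control groups, with means from 1.58 in T10R42 to 2.23 in T10R1, a span of 0.66.

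C1s encodes the protease that cuts C4 and C2. Its changes were 0.11 in T5R1, 0.14 in T5R10, 0.15 in T10R1 and 0.16 in T10R42, each with an SE of 0.11, and none was called. In T5R1 it measured 2.60, 2.58, 2.10 and 2.50 in stressed hearts, against 2.35, 2.40, 2.25 and 2.36 in controls, with the third stressed heart lowest of all 8. Mouse C1r, C1s and C4 each have a closely related gene (C1rb, C1s2 and C4a), and whether these probes also bind the related transcript was not tested.

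Serping1 was read by a pair of probes, and the brighter one was used. In T10R1 it measured 4.914, 4.917, 5.004 and 5.131 in stressed hearts, against 4.618, 4.596, 4.444 and 4.511 in controls. The arms did not overlap, and Serping1 rose by 0.45 ± 0.10 (a fold of 1.37, adjusted p = 0.0192). With arrays centred on the median in place of the 75th percentile the change was 0.41 and the call was lost (adjusted p = 0.125), as it was without control replicate 3, control replicate 4 or stressed replicate 4 (adjusted p from 0.0501 to 0.0745) and with the arrays of T10R1 alone (adjusted p = 0.147) or the replicate number as a block (adjusted p = 0.0718). The junction probe shown above gave 0.34 ± 0.09 in T10R1 (adjusted p = 0.0864), and the mean of both probes 0.39 (adjusted p = 0.025).

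In T5R1 Serping1 measured 4.82, 4.59, 4.25 and 4.62 in stressed hearts, against 4.51, 4.54, 4.60 and 4.41 in controls. The arms overlapped, with a change of 0.05 ± 0.10 (adjusted p = 0.741), which turned to -0.03 without stressed replicate 1. The junction probe gave a larger change in T5R1, 0.25 ± 0.09 (adjusted p = 0.0714), and the mean of both probes 0.15. The effects in T10R1 and T5R1 differed by 0.40 ± 0.14, which did not pass the test (adjusted p = 0.134), and by 0.08 ± 0.13 on the junction probe (adjusted p = 0.786). In T10R42 the change was -0.08 ± 0.10, with 4.96, 4.61, 4.57 and 4.51 in stressed hearts, against 4.78, 4.75, 4.72 and 4.72 in controls. That sign turned on the junction probe (0.12), with the mean of both probes (0.02) and with arrays centred on the median (0.07). The Serping1 effect was lower in T10R42 than in T10R1 by -0.53 ± 0.14 (adjusted p = 0.0329), the only one of the 9 called for this difference (4.12% of all genes). On the junction probe the difference was -0.21 ± 0.13 (adjusted p = 0.349). That call was lost under 12 of 30 alternatives, with adjusted p up to 0.181, among them the removal of control replicate 2 or 4 or stressed replicate 1 or 4 of T10R1, or of control replicate 1 or 2 or stressed replicate 3 or 4 of T10R42 (adjusted p from 0.0502 to 0.0712).

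Cfb encodes factor B. It measured 0.283, 0.003, -0.603 and -0.349 in stressed T5R1 hearts, against -0.996, -0.798, -0.855 and -1.011 in controls. The arms did not overlap. Cfb rose by 0.75 ± 0.21 (a fold of 1.68, adjusted p = 0.0155), and without stressed replicate 1 its adjusted p was 0.0825. In T10R1 it measured -0.22, -0.42, -0.64 and -0.52 in stressed hearts, against -1.18, -0.75, -1.25 and -0.65 in controls. These arms did not overlap either, but the change of 0.51 ± 0.21 was not called (adjusted p = 0.272). Changes were 0.09 ± 0.21 in T5R10 and 0.21 ± 0.21 in T10R42, with overlapping arms in both.

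C4b encodes the C4 that C1s cuts. In T5R1 it measured 3.681, 4.051, 3.329 and 3.177 in stressed hearts, against 3.142, 3.041, 3.170 and 3.099 in controls. The arms did not overlap, by a narrow margin at the lowest stressed heart, and the change of 0.45 ± 0.17 missed the threshold (adjusted p = 0.0848). It passed with normexp background correction, with arrays centred on the median, with the authors' value table, with array quality weights and without stressed replicate 4, with adjusted p from 0.0122 to 0.0475. In T10R1 the stressed hearts were close together at 3.37, 3.45, 3.37 and 3.45, against 2.74, 3.04, 2.68 and 3.37 in controls. The change was 0.45 ± 0.17 there too, and was not called (adjusted p = 0.242).

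C3, the component at which the pathways meet, was called in no condition. Its group means lay between 5.98 and 6.27 in all 8 groups, and its changes were 0.07 in T5R1, -0.09 in T5R10, 0.08 in T10R1 and -0.02 in T10R42, each with an SE of 0.10. In T5R1 the 95% interval of the change reached from -0.13 to 0.28. The second C3 probe gave 0.05 ± 0.10 in T5R1. The plot of changes sets the 9 genes side by side.

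**Figure D2:**
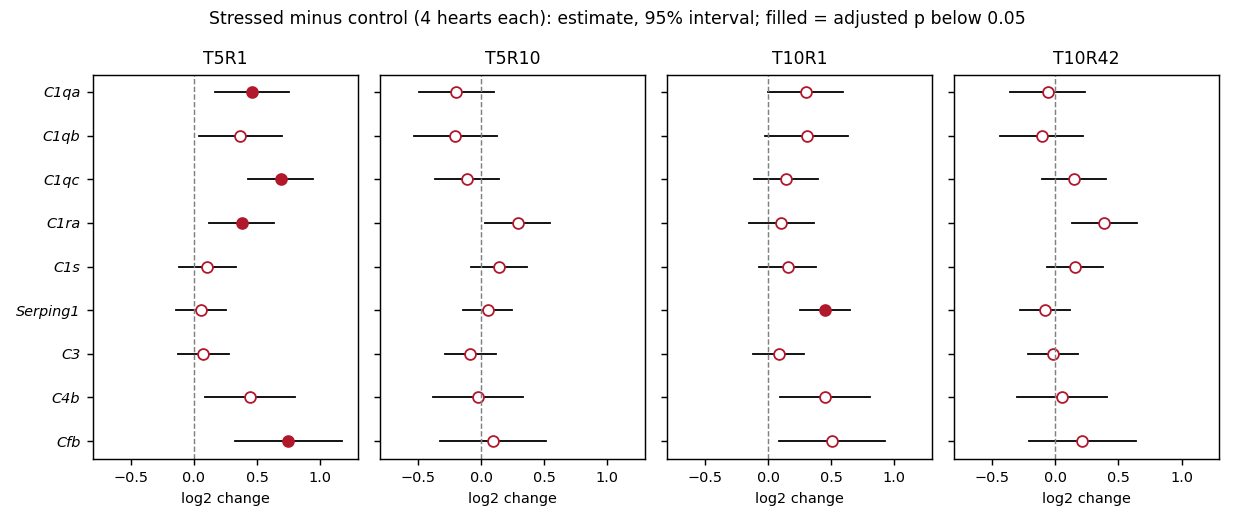
Log2 change, stressed minus control (x axis), of each of the 9 genes (y axis) in the 4 conditions, with 95% intervals from limma and 4 hearts per arm. Filled points passed an adjusted p of 0.05: C1qa, C1qc, C1ra and Cfb in T5R1 and Serping1 in T10R1.

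Control hearts differed between conditions too, where slide and schedule cannot be told apart. Control means of a gene spanned from 0.11 for Cfb to 0.66 for C1ra over the 4 conditions. For C1qb the control means reached 2.09 in T10R42 and 1.71 in T10R1, and their difference of 0.38 was as large as the stress change in T5R1. For Serping1 the control means reached 4.91 in T5R10 and 4.52 in T5R1. Levels were therefore compared between arms of a slide only.

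Hearts of the same group differed from each other in ways that the genes shared. After subtraction of group means, the 32 hearts gave a Pearson r of 0.882 between C1qa and C1qb, 0.862 between C1qa and C1qc and 0.743 between C1qb and C1qc. C4b and Cfb had an r of 0.774, and C1ra and C1s one of 0.655. In contrast C1qb and C1ra had an r of -0.02, and C4b and Serping1 0.06. These values describe 32 hearts whose genes share array, scaling and slide, and no test was attached.

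The mean of the 3 C1q chains followed the mean of 20 macrophage markers, with a Pearson r of 0.918 and a Spearman rho of 0.866 over 32 hearts. Without the 2 hearts farthest from the median of the macrophage markers, r was 0.862. The other genes had an r with the macrophage markers from 0.202 for C1ra to 0.576 for Cfb. C4b and Cfb had an r of 0.60 and 0.62 with the mean of 7 adipocyte markers, while the C1q chains had between -0.01 and 0.10. With the mean of 15 fibroblast markers the C1q chains had an r of 0.732 for C1qa, 0.551 for C1qb and 0.702 for C1qc, C1s had 0.601, C1ra 0.506 and Serping1 0.499, and C3, C4b and Cfb had 0.112 to 0.392. With the mean of 10 heart muscle markers r ran from -0.638 for C1qc to 0.01 for C4b, and with 6 erythroid markers from -0.379 for C1s to 0.177 for C3. The r of each of the 9 genes with the mean of 7 liver cell markers lay between -0.29 and 0.40. The plot of variation within groups shows the C1q and the C4b relations.

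**Figure D3:**
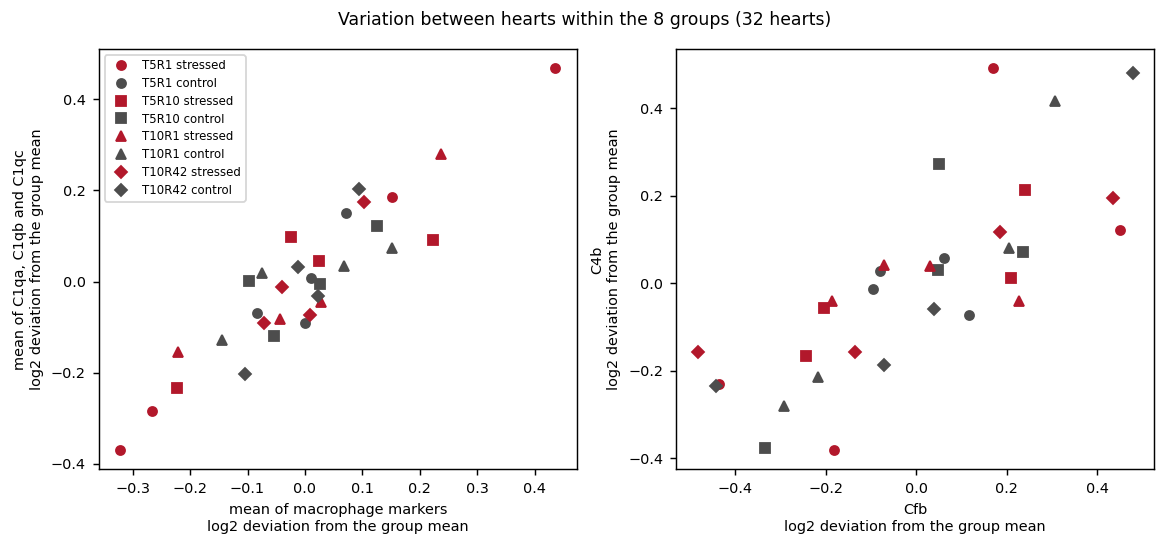
Deviation of each of the 32 hearts from its group mean in log2 units: left, the mean of C1qa, C1qb and C1qc (y axis) against the mean of 20 macrophage markers (x axis), and right, C4b (y axis) against Cfb (x axis), with stressed hearts in red, control hearts in grey and 1 symbol per condition. Points run along a rising diagonal in both panels, with Pearson r of 0.918 on the left and 0.774 on the right.

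Likeness within groups was ranked over the tested genes with a RefSeq symbol, the members themselves left out. Those most like the mean of the C1q chains were Fcgr3 (an Fc receptor, r = 0.897), Ctss (the lysosomal protease cathepsin S, 0.882), Ly86 (0.876), Myo1f (0.853) and Mpeg1 (0.851), over 32 hearts. Fcgr3, Ctss and Mpeg1 were themselves on the macrophage list. Most like the mean of C1ra, C1s and Serping1 were C1s2, the related copy of C1s (0.878), LOC547349 (0.843), Cyp4v3 (0.822), Lrp1 (0.807) and Setd7 (0.805). Most like the mean of C3, C4b and Cfb were Gm9210 (0.862), Trf, which encodes transferrin (0.839), Ifi27l2a (0.832), Gm7669 (0.818) and Slc7a10 (0.816). The median r of all genes was -0.03 with the C1q chains, -0.02 with the C1 proteases and inhibitor, and -0.05 with C3, C4b and Cfb. The measured stress changes of genes alike within groups could differ in sign. In T5R1 the change was 0.90 for Ifi27l2a (limma adjusted p = 0.00881) and -1.66 for Slc7a10, which was not called (adjusted p = 0.192).

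Markers of other cells moved in the same comparisons. In T5R1, 13 of 20 macrophage markers rose, among them Ccr2 (1.50), Cd68 (1.17), Mpeg1 (1.12) and Cx3cr1 (1.08), and none was called lower. The list was not uniform: 17 of the 20 were measured higher, while Timd4 (-0.56, adjusted p = 0.0669), Lyve1 (-0.36) and Cd163 (-0.20) were measured lower. The mean level of the list lay 0.24 to 1.00 above the control mean in the 4 stressed hearts, against -0.08 to 0.07 in the controls. In T10R1, 1 macrophage marker rose (Csf1r, 0.45) and 1 fell (Timd4, -0.81), while the mean level of the list lay 0.05 to 0.51 above the control mean in stressed hearts, against -0.14 to 0.15 in controls. Without stressed replicate 1, 8 of the 20 were called in T5R1, and in T10R1 the removal of single arrays left 0 to 2. In T5R10 and T10R42 none of the 20 was called by limma, against 4 and 1 at an unadjusted p below 0.05. The part of the macrophage markers in the C1q changes was not tested.

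Of 15 fibroblast markers, 7 rose and 1 fell in T5R1. The largest changes were 3.02 for Postn, 2.95 for Col3a1, 2.53 for Col1a1 and 1.46 for Mfap5. The list was not uniform: 12 of the 15 were measured higher, and the median change was 0.32. Medag fell (-0.32, limma adjusted p = 0.0193), and Gsn (-0.28) and Scara5 (-0.20) were measured lower. Dcn (0.08) and Tcf21 (0.31) were among those not called. In T10R1, where Serping1 rose, 7 of the 15 rose and none fell, with 2.29 for Col3a1, 2.05 for Postn, 2.01 for Col1a1 and 1.10 for Mfap5. The median change of the list was 0.60 there, and only Medag was measured lower (-0.23). The mean level of the list lay 0.57 to 1.25 above the control mean in stressed T5R1 hearts, against -0.06 to 0.14 in controls, and 0.52 to 1.06 in stressed T10R1 hearts, against -0.02 to 0.02 in controls. None was called by limma in T5R10 or T10R42, against 5 and 1 at an unadjusted p below 0.05. The part of the fibroblast markers in the changes of C1ra, Cfb and Serping1 was not tested.

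Of the 12 liver cell markers, 7 were tested and none was called by limma in any condition (1 of 7 at an unadjusted p below 0.05 in T10R42, and 0 in the other 3), and in T5R1 all 7 were measured lower in stressed hearts. The tested ones were the 7 that were well above background on 25 to 32 arrays, as given above, and Alb, Apoa1, Fgb, Fgg and Apoh, on 1 to 6, were not tested. Of 7 adipocyte markers tested, only Slc2a4 fell in T5R1 (-0.34), and Adipoq, Plin1, Retn, Car3, Cidec and Fabp4 were not called. The signal of Slc2a4 was above that of 99.07% of all probes and that of Fabp4 above 99.14%. Which heart cells this RNA came from was not tested. All 7 were measured lower in stressed hearts in T5R1 and in T10R1. The range was wide: the mean level of the 7 lay -2.58 to -0.18 from the control mean in stressed T5R1 hearts, against -0.30 to 0.21 in controls. Of 6 erythroid markers, 3 rose in T5R1, and of 10 heart muscle markers, 1 fell (Tnni3, -0.32), a count that ran from 0 without control replicate 1, 2 or 3 or stressed replicate 1 to 4 without stressed replicate 3. All 10 heart muscle markers were measured lower in T5R1, 7 of them at an unadjusted limma p below 0.05. Of all 27532 genes, 8126 had such a p in T5R1, and the median change over all genes was -0.12. Whether the signs of the 10 hold with arrays centred on the median is not given here. Of 20 acute phase and interferon inducible genes, 7 rose in T5R1, among them Serpina3n (2.48), Lcn2 (1.87) and Cxcl10 (1.76).

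A further 51 genes of the complement system were listed, of which 50 had a probe named for them and 40 passed the filter on dim probes. In T5R1, 6 of the 40 rose and 2 fell, with a median change of -0.04. Over all genes 5.3% were called higher and 8.43% lower there. In T10R1, 2 rose and none fell, with a median of 0.13, and 0.774% of all genes were called higher. With single arrays left out, 7 to 11 of the 40 were called in T5R1, while in T10R1 it was 1 without control replicate 3 and 0 without any other array. In T5R10 and T10R42 none of the 40 was called by limma, against 7 and 5 at an unadjusted p below 0.05. Of all 27532 genes, 3843 in T5R10 and 5166 in T10R42 had such a p. The plot of complement genes by role gives the 9 and the 40 genes.

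**Figure D4:**
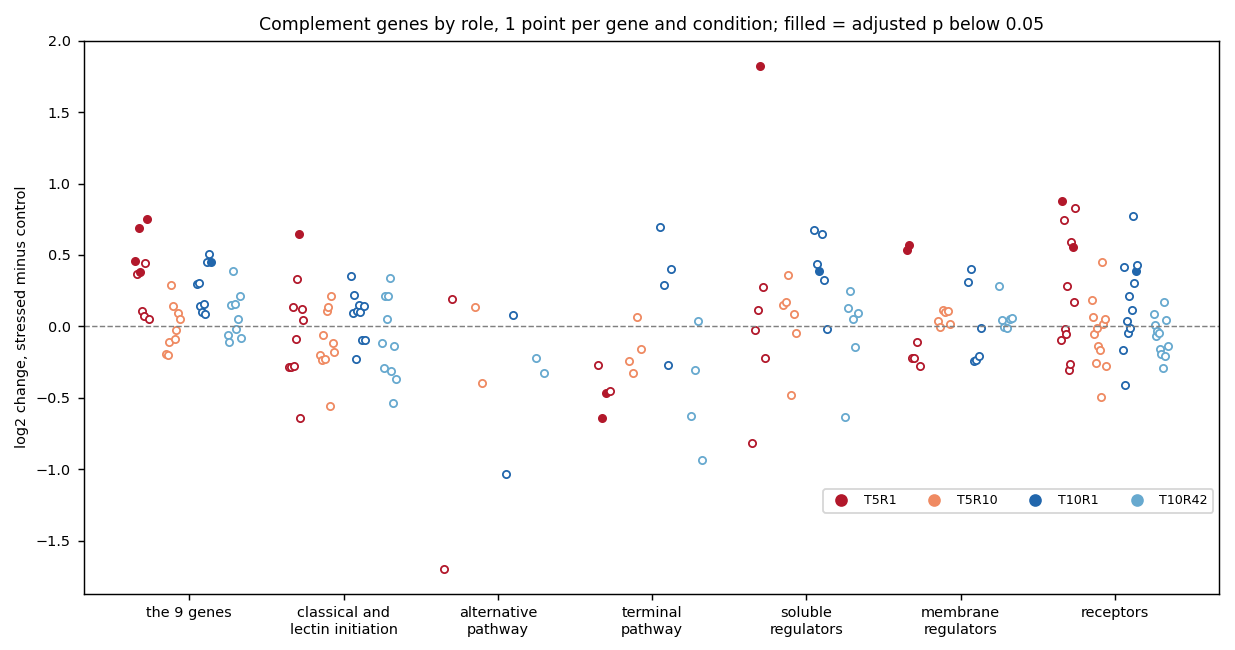
Log2 change, stressed minus control (y axis), of the 9 genes and of 40 other complement genes by role (x axis), 1 point per gene and condition in 4 colours, with 4 hearts per arm. Filled points passed an adjusted p of 0.05: in T5R1 they are positive for Fcna, Cfi, Cd55, Cd55b, C3ar1 and Itgb2 and negative for the terminal components C7 and C8g, and in T10R1 positive for Cfhr2 and Lrp1.

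Among the genes that start the classical and lectin pathways, 1 of 10 tested was called in T5R1. It was Fcna, which encodes the ficolin of plasma and macrophages and rose by 0.65 ± 0.17 (adjusted p = 0.0138), and none of the 10 was called without control replicate 2. Its effect was lower in T5R10 than in T5R1 by -1.20 ± 0.25 (adjusted p = 0.00856). The related copies C1rb and C1s2 changed by -0.29 ± 0.11 (adjusted p = 0.0735) and 0.13 ± 0.11 (adjusted p = 0.411) in T5R1. For C1rb the effect in T10R1 was higher than in T5R1 by 0.64 ± 0.15 (adjusted p = 0.0487). C2, the partner of C4, changed by -0.28 ± 0.20 in T5R1 (adjusted p = 0.358).

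In the alternative pathway neither Cfd nor Cfp was called by limma, and 1 of the 2 (Cfd) had an unadjusted p below 0.05 in T5R1. Cfd, which encodes the adipose-made protease that cuts factor B, changed by -1.70 ± 0.78 in T5R1 (adjusted p = 0.148) and -1.03 ± 0.78 in T10R1 (adjusted p = 0.620), so that its measured changes ran opposite to those of Cfb. Cfp, for properdin, changed by 0.19 ± 0.18 in T5R1 (adjusted p = 0.498).

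In the terminal pathway, whose proteins form the membrane attack complex, 2 of 4 tested genes fell in T5R1 and none rose. C7 fell by 0.64 ± 0.15 on the log2 scale (adjusted p = 0.00569) and C8g by 0.47 ± 0.10 (adjusted p = 0.00257), with the stressed hearts wholly below the controls for both. The C7 effect was higher in T10R1 than in T5R1 by 0.93 ± 0.21 (adjusted p = 0.0453). C8a, C8b and C9 did not pass the filter on dim probes.

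Of 6 soluble regulators, Cfi rose in T5R1 and Cfhr2 in T10R1. Cfi, for the protease factor I that degrades C3b, was well above background on 2 of 4 stressed T5R1 arrays and on none of the control arrays. The limma change of 1.82 ± 0.44 (adjusted p = 0.00714) includes these dim arrays, so its size is not resolved. Against a floor set for the control arrays, the stressed mean was 1.06-fold higher. That mean includes stressed arrays not well above background, so the value is no firm lower bound, and it was not tested. Cfhr2 rose by 0.39 ± 0.09 in T10R1 (adjusted p = 0.0375), and no soluble regulator was called there when any single array of T10R1 was left out.

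Of 6 membrane regulators, which protect host cells, Cd55 rose by 0.53 ± 0.17 (adjusted p = 0.0418) and its related copy Cd55b by 0.57 ± 0.13 (adjusted p = 0.00422) in T5R1, and none fell. The count was 1 without control replicate 1 or 3 or stressed replicate 1, 2 or 3. Of 12 receptors, 2 rose in T5R1: C3ar1, the receptor of the fragment C3a, by 0.88 ± 0.12 (adjusted p = 2.25e-05), and Itgb2, the shared chain of complement receptors of white cells, by 0.55 ± 0.13 (adjusted p = 0.00418). C5ar1, the receptor of C5a, changed by 0.74 ± 0.29 (adjusted p = 0.0861). The C3ar1 effect was lower in T5R10 than in T5R1 by -0.82 ± 0.17 (adjusted p = 0.00943). In T10R1 Lrp1, a scavenger receptor, rose by 0.39 ± 0.10 (adjusted p = 0.0431), and no receptor was called there when any single array but control replicate 3 was left out. Receptors called in T5R1 numbered 4 without control replicate 1 or stressed replicate 4.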

How the data were processed

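Heart RNA of 32 mice (8 groups of 4, grouped by the labels) was measured on 1-colour arrays. The deposited scanner files hold intensity values, which Feature Extraction 10.7.3.1 background-subtracted, per the file headers, and other values, namely spot flags of 0 or 1. The authors also deposited log2 values in a table, whose columns followed the log2 mean signal (correlation at least 0.99951, against at most 0.98324 with the processed signal), their medians lay between 5.85 and 6.26, and the scaling behind them is not given in the sources used here. They served as an alternative only.

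Of 62976 spots, 59305 were not controls, and 5470 outlier spots were left out. The processed signal of a probe was divided by the 75th percentile of its array (237.2 to 498.9, over these 59305 spots) and taken to log2. This percentile was settled after a run with the percentile over averaged probes had been seen, and that setting is given as an added alternative. Probes had to be well above background in 3 of 4 arrays of some group, with no more than 4 arrays missing, and the brightest of a gene's probes was used. limma 3.58.1 (R 4.3.3) fitted 8 group means to 27532 genes (24 residual and 2.28 prior degrees of freedom). The fit was tested on simulated data. Figures and motif counts used Python and matplotlib. Arrays were checked for pairing by replicate number: correlations of same-numbered arrays ran from -0.266 to 0.214, so no pairing was used.

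The 9 genes and all other lists were chosen with earlier results of these data known. All 9 are named. Of other lists the text gives counts and up to 4 called genes by size (6 for complement lists). For each role group it gives the 5 genes most alike among tested genes with a RefSeq symbol, the 9 left out. Some uncalled genes, the fibroblast marker Medag and some differences between conditions were named after their values were seen. Alternatives were other background corrections, scalings, filters, probe rules and blocks, array weights, the authors' table, and single arrays left out. Some genes of the lists, and a call among the acute phase and interferon inducible genes, are not reported here.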

Additional observations from a re-analysis of the deposited data

Results flagged for a closer look

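Among 72 sets of 4 hearts (9 genes in 8 groups), 3 held a heart that stood apart by Dixon's criterion for 4 samples, where chance gives about 1 in 20. C1qb was 2.03 in T5R1 control replicate 2, against 1.70 to 1.74 in the other controls. C3 was 5.65 in T10R42 stressed replicate 2, against 6.09 to 6.14 in the other stressed hearts; the same heart had the lowest C1ra of its group. Serping1 was 5.14 in T5R10 stressed replicate 3, against 4.89 to 4.91.

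The stress effect differed between conditions for 2 genes, by limma's test of the difference itself. C1qc differed by -0.80 for T5R10 minus T5R1 (adjusted p = 0.0134), with 4 of 4 stressed hearts above all controls in T5R1. Serping1 differed by -0.53 for T10R42 minus T10R1 (adjusted p = 0.0329), with 4 of 4 stressed hearts above all controls in T10R1 and 3 of 4 below all controls in T10R42. The other Serping1 probe gave -0.21 for this difference (adjusted p = 0.349).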

How the results depend on the processing

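The counts of called genes among the 9 kept within 1.5 times in 18 of 22 alternatives in T5R1, 22 of 22 in T5R10, 16 of 22 in T10R1 and 18 of 22 in T10R42. Leaving out single arrays gave 1 to 5 genes in T5R1 (4 in the full data; 1 without stressed replicate 1, and 2 without stressed replicate 2, control replicate 3 or control replicate 4), 0 to 1 in T10R1 (0 without control replicate 3, control replicate 4 or stressed replicate 4), 0 to 1 in T10R42 (1, C1ra, without stressed replicate 2), 1 to 2 for T5R10 minus T5R1, 0 to 1 for T10R42 minus T10R1 and 0 for T10R1 minus T5R1 and T5R10. In T10R1 the count was 0 with arrays centred on the median, with the arrays of the condition alone and with the replicate block. In T10R42 it was 1 with the replicate block, with slide row as a block and with array quality weights. For T5R10 minus T5R1 it was 2 with the authors' value table, and 0 with the arrays of both conditions alone and without the marked arrays. For T10R42 minus T10R1 it was 0 centred on the median, with no filter on dim probes, with the mean over probes and with the replicate block. For T10R1 minus T5R1 it was 2 with array quality weights (1 higher, 1 lower). With the replicate block the count in T5R1 stayed at 4. Arrays of the same replicate number also shared a slide row, so this block carries slide row too. The causes of these changes were not tested.

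Directions held in 197 of 198 values in T5R1 (the exception, Serping1 at -0.03, is given above) and 198 of 198 in T10R1, against 189 and 183 of 198 in T5R10 and T10R42, where nothing was called. No called change reversed. The other filters on dim probes, the fit of a condition's arrays alone and the blocks left the size of these changes as it was. Directions under those alternatives could not turn, so part of each tally was fixed in advance. Centring on the median gave 6 called genes in T5R1. Under the added percentile over averaged probes the 7 counts were the same. Weights called 14 of the 40 other complement genes in T5R1, against 8. No Cfi value rests on more than 2 arrays above background in an arm of T5R1.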
